A study of Mus musculus with 9 samples.

Results

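The constitutive proteasome subunits described here are 31 genes, chosen by symbol from the 56980 genes of the deposited table. They comprise 14 genes of the 20S core particle, Psma1 to Psma7 and Psmb1 to Psmb7, and 17 genes of the 19S regulatory particle. The latter are Psmc1 to Psmc6 with Psmd1, Psmd2, Psmd3, Psmd4, Psmd6, Psmd7, Psmd8, Psmd11, Psmd12, Psmd13 and Psmd14. The rule uses their names and no measured value, although the set was proposed with earlier results of these data known, and the inducible immunoproteasome subunits were left out. The RNA, selected for poly(A), came from MH-S, an SV40-transformed line of alveolar macrophages from the mouse, in 3 groups of 3 libraries, all at 24 h. The groups were a control, a group exposed to copper oxide nanoparticles (CuO NPs) at 20 µg/ml, and a group exposed to the same dose of CuO NPs together with 10 µM TTM. TTM is not spelled out in the labels, and in copper research it usually stands for tetrathiomolybdate, a copper chelator. There was no TTM-only group, and its effect without nanoparticles is not known from these data. The line is a single transformed culture, and no label states whether replicates were separate cultures, so the p-values reflect the spread among these libraries, which may be technical.

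The proteasome is the main protease of the cytosol and nucleus and breaks down proteins that carry ubiquitin chains. Its core is a barrel of stacked alpha and beta rings, and 3 of the constitutive beta subunits carry the active sites. The regulatory particle caps the barrel. Its base holds a ring of ATPases that unfold the substrate and scaffold proteins that bind ubiquitin, and its lid holds the deubiquitinase that removes the chain. When proteasome activity is limiting, the transcription factor NFE2L1 is known to activate most of these genes together, through the antioxidant response element. In macrophages, interferon gamma is known to replace the 3 catalytic subunits with immunoproteasome subunits, which alter the peptides made for antigen presentation.

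Promoter windows of 300 bases, from 250 bases before to 50 bases after an annotated start, were found for 25 of the 31 members in RefSeq on GRCm38.p6, in 27 windows. Psmb1, Psmb2, Psmb7, Psmc3, Psmd3 and Psmd7 had none. The windows of 3 members that the results below turn on are shown. Psmb5 had the largest change of a catalytic subunit with CuO NPs, Psmc4 the largest fall with TTM, and Psmd8 was the 1 member higher with TTM than with CuO NPs alone. Capitals mark matches to the antioxidant response element core TGACNNNGC and to a head-to-head pair of heat shock units, GAANNTTC, searched on both strands. The windows lie on the minus strand at chr14:54617946-54618245 for Psmb5, chr7:28050043-28050342 for Psmc4 and chr7:29180624-29180923 for Psmd8, and are written 5′ to 3′ along the gene.
Psmb5: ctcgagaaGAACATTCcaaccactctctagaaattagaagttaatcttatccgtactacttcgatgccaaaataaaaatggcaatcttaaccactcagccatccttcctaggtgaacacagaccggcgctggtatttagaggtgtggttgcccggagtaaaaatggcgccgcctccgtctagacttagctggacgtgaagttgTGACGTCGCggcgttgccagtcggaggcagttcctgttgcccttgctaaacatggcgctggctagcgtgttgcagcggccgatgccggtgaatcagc
Psmc4: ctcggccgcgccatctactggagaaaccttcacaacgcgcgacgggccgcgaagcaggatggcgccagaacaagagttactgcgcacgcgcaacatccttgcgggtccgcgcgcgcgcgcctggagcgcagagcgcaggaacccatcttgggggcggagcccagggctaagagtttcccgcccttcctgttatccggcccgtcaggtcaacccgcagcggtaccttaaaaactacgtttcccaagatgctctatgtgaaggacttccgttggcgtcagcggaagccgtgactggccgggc
Psmd8: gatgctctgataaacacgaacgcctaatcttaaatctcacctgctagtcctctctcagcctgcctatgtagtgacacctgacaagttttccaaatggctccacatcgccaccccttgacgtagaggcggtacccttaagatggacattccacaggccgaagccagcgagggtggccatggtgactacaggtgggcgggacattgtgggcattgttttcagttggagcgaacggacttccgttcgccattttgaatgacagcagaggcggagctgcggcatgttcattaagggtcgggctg

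In the Psmb5 window, TGACGTCGC lay at positions -47 to -39 and GAACATTC at -242 to -235 from the start. Neither motif, nor CCAAT or TTCNNGAA, occurred in the windows of Psmc4 and Psmd8. Across the members, TGACNNNGC was present in 4 of 27 windows (14.8%), those of Psmb5, Psmb6, Psmc6 and Psmd12, against 12.4% of the 32851 windows in the table. CCAAT, the box bound by NF-Y, was present in 37.0% of member windows and 37.4% of all windows. GAANNTTC and TTCNNGAA were each present in 3.70% of member windows, against 7.86% and 8.52% of all windows. The matches in the Psmb5 window did not overlap each other. The median GC content was 56.7% in member windows and 52.7% in all windows.

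Values were deposited as TPM, transcript levels scaled for length to a fixed total per library, so levels can be compared between genes, but the sequencing depth is unknown. All 31 members passed the filter of 1 TPM in 3 libraries, and their lowest value in any library was 56.5 TPM, for Psmd6. In each library 19710 to 20863 genes were above 0. All 10 macrophage markers reached 1 TPM in every group, with a summed level of 2913 to 2992 TPM in controls, 1450 to 1501 TPM with CuO NPs and 1876 to 2001 TPM with CuO NPs and TTM. The 6 lymphocyte markers summed to at most 3.36 TPM, the 6 epithelial markers, of which 4 to 6 were at 0, to at most 0.15 TPM and the 5 fibroblast markers to at most 1.22 TPM. The 6 granulocyte markers summed to 385 to 402 TPM in controls, 200 to 221 TPM with CuO NPs and 65.2 to 72.5 TPM with TTM added. Nearly all of that sum was S100a8, at 335 ± 10.0 TPM in controls, and S100a9, while Ly6g was higher with CuO NPs, at 2.77 ± 0.356 TPM against 0.32 ± 0.215 TPM. Mitochondrially encoded transcripts took 12.6% to 13.5% of TPM in controls, 15.7% to 16.1% with CuO NPs and 11.4% to 13.4% with TTM added, and the part of these shifts in the results below was not tested beyond the scalings given. In these bulk samples, a change in the make-up of the cells and a change in RNA per cell cannot be told apart.

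Within each particle the subunits are present in equal numbers, but their transcripts were not equally abundant. In the controls the core members ranged from 77.9 ± 2.90 TPM for Psma2, an alpha ring subunit, to 499 ± 9.56 TPM for Psmb6, the catalytic subunit with caspase-like activity (SD, n = 3, here and for each level with an SD). The highest value was 6.41 times the lowest. The regulatory particle members ranged from 86.9 ± 0.480 TPM for Psmd11, a lid subunit, to 329 ± 5.68 TPM for Psmc1, an ATPase, a ratio of 3.79. The median level was 229 TPM over the core members and 137 TPM over those of the regulatory particle. At the top of the order, Psmb6, Psma7 (479 ± 9.21 TPM) and Psma6 (353 ± 3.97 TPM) did not overlap. Further down, the order was less distinct: from Psmb3 at 248 ± 11.4 TPM to Psma4 at 226 ± 3.57 TPM, each of 5 neighbouring core members differed from the next by less than the larger of their SDs.

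**Figure D1:**
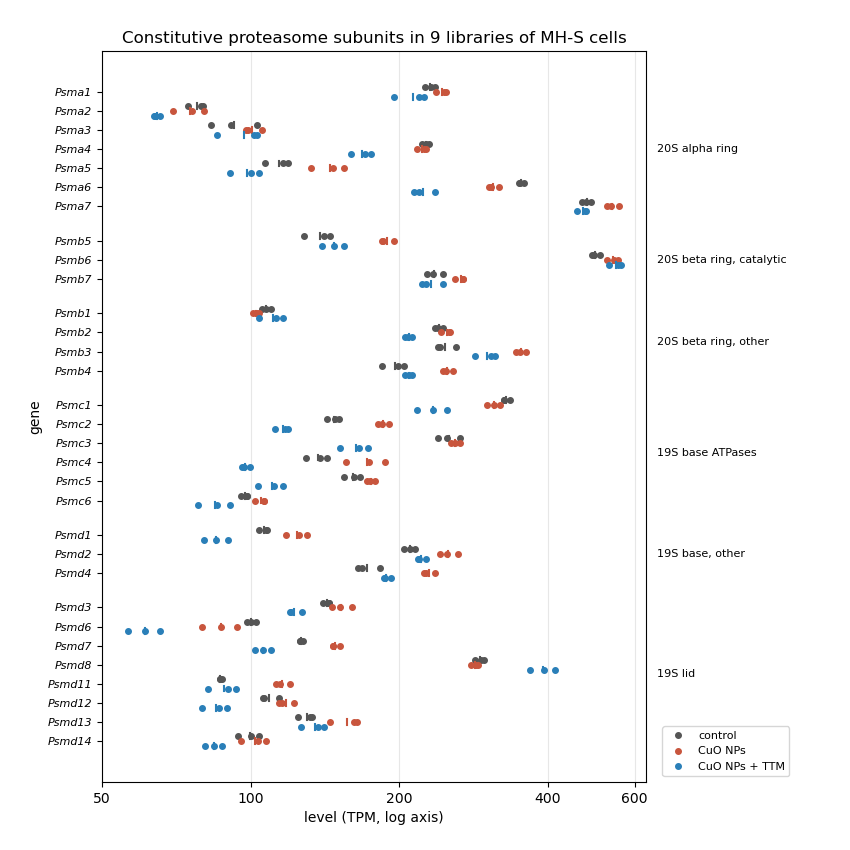
Level of each of the 31 subunits in the 9 libraries, in TPM on a log axis, with a tick at each group mean and subunits grouped by class. Most CuO NP points (red) sit to the right of the controls (grey) and most points with TTM (blue) to the left of both, while for Psmd8 the blue points, 368 to 414 TPM, sit to the right.

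With CuO NPs, 15 of the 31 subunits rose and 2 fell against the control, where 11.8% of all 12904 genes tested were called higher and 30.1% lower (limma on log2(TPM + 1), two-sided, Benjamini-Hochberg adjusted over all genes, called at an adjusted p below 0.05). The rises were modest. The members' median log2 fold change was 0.12, while the median over all genes was -0.12, and 29 of 31 members lay above that median of all genes. All 3 libraries of the CuO NP group lay above all controls for 20 members and below them for 4, against 15.5% and 37.5% of all genes. With median-of-ratios scaling, which sets the median gene near 0, 25 members were called higher and 0 lower, against 19.6% and 20.4% of all genes. The particles had similar counts here: 7 core members rose and 1 fell, with a median of 0.12, and 8 of the regulatory particle rose and 1 fell, also with a median of 0.12.

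All 3 catalytic subunits rose with CuO NPs. Psmb5 (ENSMUSG00000022193), the chymotrypsin-like subunit that proteasome inhibitors such as bortezomib bind, stood at 141, 145 and 128 TPM in the controls and at 196, 185 and 185 TPM with CuO NPs. The groups did not overlap, and the difference on the log2 scale was 0.45 (SE 0.058, adjusted p = 0.000254, limma). Psmb7, the trypsin-like subunit, rose from 236 ± 9.07 to 266 ± 5.50 TPM (0.18, SE 0.048, adjusted p = 0.0152), and was not called without control replicate 3 (adjusted p = 0.056). Psmb6 rose from 499 ± 9.56 to 542 ± 13.9 TPM (0.12, SE 0.039, adjusted p = 0.0362). That call was lost without any of control replicates 1, 2 and 3 or CuO NP replicates 1 and 3 (adjusted p = 0.0519 to 0.119).

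Among the 4 beta subunits without an active site, Psmb3 and Psmb4 rose and Psmb1 and Psmb2 were not called. Psmb3 (ENSMUSG00000069744) had the largest rise of all members. Its values were 240.0, 261 and 242 TPM in the controls and 351, 345 and 362 TPM with CuO NPs, 0.51 on the log2 scale (SE 0.050, adjusted p = 4.02e-05, limma). Psmb4 stood at 199, 204 and 185 TPM in the controls and at 249, 257 and 245 TPM with CuO NPs (0.35, SE 0.046, adjusted p = 0.000241). For both genes every CuO NP library was above every control. Psmb1 went the other way without being called: its 3 CuO NP libraries, 101 to 104 TPM, all lay just below the controls at 106 to 110.0 TPM (-0.07, SE 0.049, adjusted p = 0.312).

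Of the 7 alpha ring subunits, which form the gate of the barrel, 2 rose, 1 fell and 4 were not called. Psma5 rose from 116, 119 and 107 TPM to 132, 147 and 154 TPM (0.34, SE 0.073, limma adjusted p = 0.00475). Psma7 rose from 479 ± 9.21 to 540.4 ± 15.9 TPM (0.17, SE 0.038, adjusted p = 0.00534). Psma6 (ENSMUSG00000021024) fell: its controls were 351, 357 and 350.1 TPM and its CuO NP libraries 304, 319 and 307 TPM (-0.19, SE 0.044, adjusted p = 0.00801). With median-of-ratios scaling Psma6 was at -0.05 and not called.

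In the base of the regulatory particle, the 3 subunits that are not ATPases all rose. Psmd4 (ENSMUSG00000005625), a ubiquitin receptor, stood at 165, 183 and 168 TPM in the controls and at 237, 225 and 227 TPM with CuO NPs (0.41, SE 0.048, limma adjusted p = 0.000122). The scaffold subunits Psmd2 and Psmd1 rose from 209.9 ± 5.01 to 252 ± 10.3 TPM (0.26, adjusted p = 0.00102) and from 107 ± 2.06 to 124 ± 6.35 TPM (0.22, adjusted p = 0.0103). Of the 6 ATPases, 2 rose. Psmc2 went from 148, 151 and 143 TPM to 185, 190.4 and 181 TPM (0.33, SE 0.044, adjusted p = 0.000282), and Psmc4 from 138, 143 and 129.6 TPM to 173, 187 and 156 TPM (0.33, SE 0.066, adjusted p = 0.0035). The other 4 ATPases had log2 fold changes between -0.08 for Psmc1 and 0.12 for Psmc5, and were not called.

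Of the 8 lid subunits, 3 rose, 1 fell and 4 were not called. Psmd11 (ENSMUSG00000017428), a scaffold of the lid, was tightly grouped at 86.5, 86.7 and 87.4 TPM in the controls and stood at 115, 120.0 and 113 TPM with CuO NPs (0.41, SE 0.055, limma adjusted p = 0.000285). Psmd13 rose from 129.9 ± 4.29 to 157 ± 10.9 TPM (0.27, adjusted p = 0.00682), and Psmd7, the partner of the lid deubiquitinase, from 126 ± 1.07 to 148 ± 2.60 TPM (0.23, adjusted p = 0.00177). Psmd14, that deubiquitinase itself, was at 99.6 ± 4.81 and 102 ± 6.23 TPM, and its groups overlapped. Psmd6 fell from 100.4 ± 2.23 to 86.9 ± 7.15 TPM (-0.21, SE 0.071, adjusted p = 0.0389). This was among the least stable calls: it was lost without any of the 3 controls, without CuO NP replicates 1 or 3, and without TTM replicate 2 (adjusted p = 0.0534 to 0.134), and with median-of-ratios scaling it was -0.08.

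**Figure D2:**
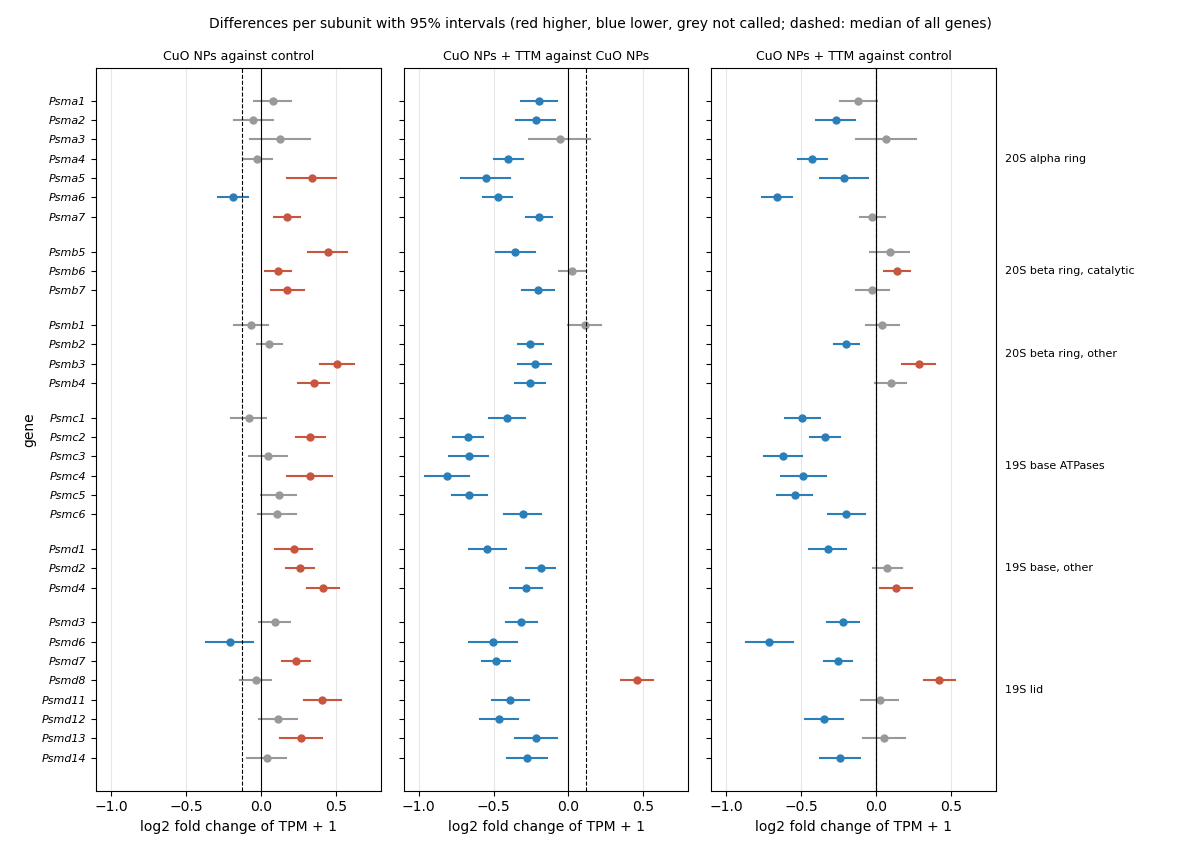
Log2 fold change of TPM + 1 with its 95% interval for each of the 31 subunits in the 3 comparisons, red where called higher, blue where called lower and grey where not called, with a dashed line at the median of all genes. In the middle panel 27 points are blue, with Psmc2, Psmc3, Psmc4 and Psmc5 farthest left, and Psmd8 alone is red at 0.46.

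Adding TTM to the CuO NPs went with lower levels of nearly every subunit. Against CuO NPs alone, 27 of 31 members fell and 1 rose, where 18.5% of all genes tested were called lower and 34.6% higher (limma, adjusted over all genes). This ran against the table as a whole, whose median log2 fold change was 0.12, while the members' median was -0.31. All 3 libraries with TTM lay below all 3 with CuO NPs for 27 members and above them for 1, against 21.2% and 38.2% of all genes. The counts were also 27 and 1 with median-of-ratios scaling, against 27.2% and 26.5% of all genes. This comparison shares its CuO NP libraries with the one above, so the opposite signs of the 2 comparisons are not separate evidence.

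The 19S regulatory particle was lower by more than the core. In the regulatory particle 16 of 17 members fell with a median of -0.41, and in the core 11 of 14 fell with a median of -0.22. Relative to the median of all genes these medians were -0.52 and -0.34. The ATPase ring had the lowest median, -0.66, and all 6 ATPases fell. Psmc4 (ENSMUSG00000030603) had the largest fall of any member: its 3 libraries with TTM were at 99.5, 95.9 and 97.1 TPM against 173, 187 and 156 TPM with CuO NPs, -0.81 on the log2 scale (SE 0.066, adjusted p = 1.35e-05, limma). Psmc2 fell from 185, 190.4 and 181 TPM to 117, 119 and 112 TPM (-0.67, SE 0.044, adjusted p = 4.12e-06). Psmc3 fell from 266, 259 and 254 TPM to 173, 166 and 152 TPM (-0.67, SE 0.057, adjusted p = 1.72e-05). Psmc5 fell from 172, 174 and 179 TPM to 116, 112 and 103 TPM (-0.66, SE 0.052, adjusted p = 1.08e-05). In these 4 genes the level with TTM was 56.6% to 63.1% of that with CuO NPs alone, and the groups did not overlap. Psmc1 and Psmc6 fell by less, with -0.41 and -0.31.

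The other base subunits and the lid also fell, with 1 exception. Psmd1 fell from 124 ± 6.35 to 85.1 ± 4.71 TPM (-0.54, SE 0.055, limma adjusted p = 4.44e-05), while its fellow scaffold Psmd2 fell by 0.19 on the log2 scale and the ubiquitin receptor Psmd4 by 0.28. In the lid the falls ranged from -0.22 for Psmd13 to -0.50 for Psmd6. The Psmd13 call was lost without CuO NP replicate 3 (adjusted p = 0.0558) or TTM replicate 3 (adjusted p = 0.052). Psmd8 (ENSMUSG00000030591), a lid subunit whose counterpart in budding yeast joins the lid last during assembly, was the exception. It stood at 285, 293 and 297 TPM in the controls, at 289, 286 and 279.6 TPM with CuO NPs, and at 368, 392 and 414 TPM with TTM added. The control and CuO NP groups overlapped, and every library with TTM was above both, with a log2 fold change of 0.46 over CuO NPs alone (SE 0.047, adjusted p = 4.78e-05).

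In the core, the alpha ring fell in 6 of 7 genes. Psma5, which had risen with CuO NPs, fell from 132, 147 and 154 TPM to 99.97, 104 and 90.8 TPM (-0.55, SE 0.073, limma adjusted p = 0.000205). Psma6, which had fallen with CuO NPs, fell again, from 304, 319 and 307 TPM to 219.7, 236 and 214 TPM (-0.47, SE 0.044, adjusted p = 2.81e-05). Among the beta subunits, Psmb5 fell to 155, 148 and 139 TPM (-0.36, SE 0.058, adjusted p = 0.000726), and Psmb3 fell to 285, 306 and 313 TPM (-0.22, SE 0.050, adjusted p = 0.00393). The 3 members not called were Psma3 at -0.06, Psmb6 at 0.02 and Psmb1 at 0.11, and the signs of Psmb6 and Psmb1 depended on the scaling, at -0.17 and -0.08 when libraries were centred on their median gene, and at -0.11 and -0.02 with median-of-ratios scaling. With that centring Psma3 (-0.25) and Psmb6 were called lower (limma adjusted p = 0.0223 and 0.0463). It gave 29 members lower, where 4222 of all 12904 genes tested were called lower. Psmb1 was called higher without TTM replicate 1 (0.15, adjusted p = 0.0203).

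Set against the control, core transcripts with the combined treatment differed in both directions, and most regulatory particle transcripts were lower. Of the 31 members, 17 were lower and 4 higher, where 28.2% of all genes tested were called lower and 27.3% higher, and the median of all genes was 0.00 (limma, adjusted over all genes). All libraries with TTM lay below all controls for 18 members and above them for 6, against 31.9% and 31.3% of all genes. In the core 5 were lower and 2 higher with a median of -0.02, and in the regulatory particle 12 were lower and 2 higher with a median of -0.25. With quantile normalization 3 core members were lower and 5 higher with a median of 0.10, and 11 of the regulatory particle were lower and 4 higher with a median of -0.16. The alpha ring had 4 of 7 members called lower, with a median of -0.21. The largest differences were in Psmd6, at 61.0 ± 4.44 TPM against 100.4 ± 2.23 TPM (-0.71, SE 0.071, adjusted p = 2.85e-05), and in Psma6, at 223 ± 11.3 TPM against 353 ± 3.97 TPM (-0.66, SE 0.044, adjusted p = 2.6e-06). All 6 ATPases were lower, with a median of -0.49 and values from -0.20 for Psmc6 to -0.62 for Psmc3. The catalytic subunits differed from these: Psmb5 (0.09, interval -0.04 to 0.22) and Psmb7 (-0.03, interval -0.13 to 0.08) were not called, and Psmb6 was higher (0.14, adjusted p = 0.0126). With quantile normalization Psmb5 and Psmb7 were called higher, at 0.21 and 0.16 (limma adjusted p = 0.0119 and 0.0101). In the main analysis the other members called higher were Psmd8 with 0.42, Psmb3 with 0.28 and Psmd4 with 0.13. With median-of-ratios scaling 17 members were lower and 2 higher, against 28.5% and 27.9% of all genes. Of the 4 called higher, Psmb6 and Psmd4 were not called with that scaling, and Psmd4 was also lost without any of 6 of the 9 libraries (adjusted p = 0.0567 to 0.145). Psma5, called lower at -0.21, was lost without control replicate 1 or 2 or TTM replicate 3 (adjusted p = 0.0824 to 0.105).

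Summing transcripts over a particle gave the same picture per library. The core sum was 3252, 3305 and 3157 TPM in the controls, 3569, 3593 and 3606 TPM with CuO NPs, and 3056, 3181 and 3048 TPM with TTM added. The regulatory particle sum was 2691, 2715 and 2689 TPM in the controls, 2957, 3050 and 2930 TPM with CuO NPs, and 2419, 2387 and 2318 TPM with TTM added. For both sums every CuO NP library was the highest, and for the regulatory particle every library with TTM was below every control, while for the core 1 library with TTM, at 3181 TPM, was above the lowest control. Within the regulatory particle only the ATPase sum separated in this way, at 806 ± 41.8 TPM with TTM against 1123 ± 6.43 TPM in the controls. The sums of the lid and of the other base subunits with TTM overlapped the controls. The ratio of core to regulatory transcripts was 1.17 to 1.22 in the controls and 1.18 to 1.23 with CuO NPs, which overlap, and 1.26 to 1.33 with TTM added, above both. Since the members were chosen with earlier results known, no test of this ratio was made. Together the 31 genes took 0.594% ± 0.00867 of all TPM in the controls, 0.657% ± 0.00654 with CuO NPs and 0.547% ± 0.0101 with TTM added.

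By class, the sums differed in which group was lowest. The ATPase sum was 1123 ± 6.43 TPM in the controls, 1208 ± 26.8 TPM with CuO NPs and 806 ± 41.8 TPM with TTM added. The lid sum was 1087 ± 11.0, 1165 ± 33.6 and 1074 ± 11.1 TPM, and Psmd8 alone supplied 368 to 414 TPM of the last. Lid sums with TTM, 1062 to 1084 TPM, overlapped the controls at 1076 to 1098 TPM. The alpha ring sum was 1574 ± 31.2, 1638 ± 16.0 and 1336 ± 46.7 TPM. In contrast, the catalytic sum was 873 ± 26.5, 996 ± 13.4 and 929 ± 24.0 TPM, so that with TTM it lay between the other groups, and all 3 of its libraries with TTM were above the controls. That difference from control rested mostly on Psmb6, at 499 ± 9.56 TPM in the controls and 550.0 ± 16.7 TPM with TTM. Psmb5 (138 ± 8.69 and 147 ± 7.61 TPM) and Psmb7 (235.5 ± 9.07 and 231.5 ± 11.7 TPM) overlapped between these 2 groups. The mean sums of the other beta subunits (791.3 ± 19.45, 955.2 ± 7.17 and 831.0 ± 23.7 TPM) and the other base subunits (488.5 ± 11.7, 605.5 ± 11.0 and 494.6 ± 8.54 TPM) were also lowest in the controls. For both of these, libraries with TTM overlapped the controls. The coefficient of variation over the 17 regulatory particle genes was 45.1% in the controls, 39.2% with CuO NPs and 58.7% with TTM added. Without Psmd8 it was 43.1%, 38.4% and 41.7% over the other 16 genes, so the higher value with TTM rested on Psmd8. Over the core members it was 57.5%, 56.6% and 63.1%.

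**Figure D3:**
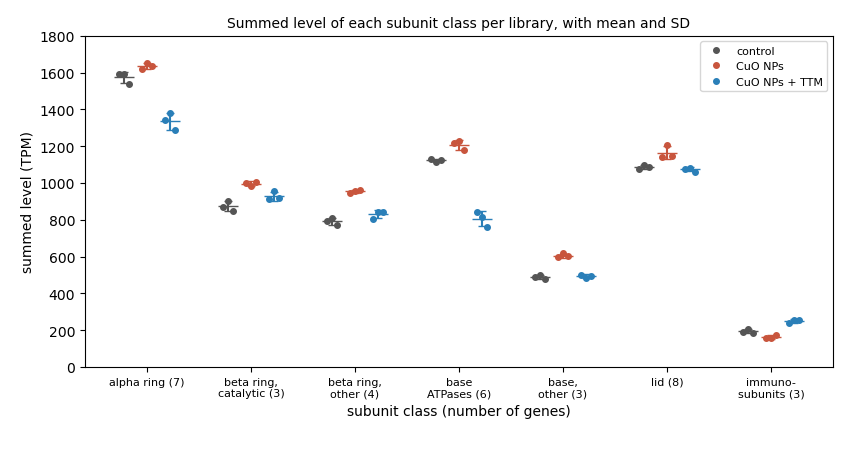
Summed level in TPM of each subunit class per library, with the mean and SD of 3 libraries per group and the number of genes in each class. The ATPase ring shows the widest gap between CuO NPs and CuO NPs with TTM, 1208 against 806 TPM, and the immunoproteasome subunits are highest with TTM.

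Reads of several members can be shared with near-identical genes, and for 2 of them, Psmb5 and Psma3, a copy held a large part of the summed TPM. Apart from these and Psmd1, the copies of a member summed to at most 0.82 TPM, for Psmb3. Gm3375 matched the Psmb5 transcript at 98.9% identity over 88.5% of its length and carried 102 to 153 TPM, 41.4% to 46.7% of the sum of both. Added together they stood at 249.7 ± 17.5 TPM in the controls, 331 ± 7.78 TPM with CuO NPs and 266 ± 4.10 TPM with TTM, and the log2 fold changes of 0.41 against control and -0.31 with TTM against CuO NPs kept the calls of Psmb5 alone (limma, adjusted p = 0.000223 and 0.000793). Psma3 shares 23.4% of its transcript at 100% identity with Gm13835, which carried 82.0 to 122 TPM. Their sum was 206 ± 0.966, 192 ± 3.64 and 181 ± 6.68 TPM, and was called lower with CuO NPs and TTM against control (-0.18, adjusted p = 0.00322), where Psma3 alone was at 0.07 and not called. The values of Psma3 are therefore uncertain. Gm21972, identical over 9.80% of Psmd1, was at 10.6 TPM at most. Without a statement that counting used the strand, genes that overlap on the opposite strand are also uncertain: Psmb7 with Nek6 (at most 34.8 TPM), Psmd13 with Sirt3 (26.7 TPM), Psmc3 with Slc39a13 (19.5 TPM), and the immunoproteasome gene Psmb9 with Tap1 (29.7 TPM).

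With CuO NPs all 3 immunoproteasome subunits had negative log2 fold changes, where their constitutive counterparts rose. Psmb8 (ENSMUSG00000024338), which takes the place of Psmb5, stood at 118, 129 and 120.1 TPM in the controls, at 103, 98.95 and 109.6 TPM with CuO NPs, and at 159.8, 176 and 179 TPM with TTM added. It fell with CuO NPs (-0.23, SE 0.060, limma adjusted p = 0.0122) and rose with TTM over CuO NPs (0.72, SE 0.060, adjusted p = 1.56e-05) and over control (0.48, adjusted p = 0.000114). Psmb9, the counterpart of Psmb6, was at 15.2, 18.4 and 14.9 TPM, then 12.7, 11.9 and 15.0 TPM, and with TTM at 27.2, 27.9 and 26.7 TPM, above every other library. Its log2 fold change was -0.28 with CuO NPs, which was not called (adjusted p = 0.0502, and 0.0199 without CuO NP replicate 3), and 1.00 with TTM over CuO NPs (adjusted p = 4.11e-05). Psmb10, the counterpart of Psmb7, fell with CuO NPs from 56.9 ± 5.38 to 46.0 ± 3.89 TPM (-0.30, adjusted p = 0.0141) and was at 51.1 ± 0.991 TPM with TTM, which was not called against either group. The fall of Psmb10 was lost without control replicate 2 (-0.24, adjusted p = 0.0541) or CuO NP replicate 1 (-0.25, adjusted p = 0.0534), and without control replicate 3 it was called lower with TTM against control (-0.22, adjusted p = 0.035). With median-of-ratios scaling none of the 3 was called with CuO NPs, at -0.10 to -0.17, and Psmb8 and Psmb9 were still called higher with TTM, at 0.59 and 0.88.

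As shares of each pair, Psmb8 made up 47.0% ± 1.41 of Psmb8 plus Psmb5 in the controls, 35.5% ± 1.48 with CuO NPs and 53.8% ± 2.70 with TTM added. The 3 groups did not overlap, and did not when the Psmb5 copy was included in the sum (32.9% ± 1.30, 23.9% ± 0.559 and 39.1% ± 1.70). Psmb9 was a minor part of its pair, with 3.13% ± 0.300, 2.37% ± 0.227 and 4.73% ± 0.141. The Psmb10 share of its pair was 19.4% ± 0.977, 14.7% ± 0.893 and 18.1% ± 0.935, so with TTM it was not above control, and those 2 groups overlapped. Over the 3 pairs together the immunoproteasome share was 18.3% ± 0.471, 14.1% ± 0.624 and 21.2% ± 0.559. The macrophage marker sum was also lowest with CuO NPs, at 1450 to 1501 TPM, but not every marker followed it. With CuO NPs all 10 markers were called lower than control, where 30.1% of all genes were. With TTM over CuO NPs, 6 of the 10 markers were called higher and 2 lower, against 34.6% and 18.5% of all genes. With median-of-ratios scaling 4 were higher and 2 lower in that comparison, against 26.5% and 27.2% of all genes. Mean Csf1r was 174.5 TPM in the controls, 86.65 TPM with CuO NPs and 44.36 TPM with TTM added. Mean Spi1 was 251.4, 130.9 and 97.56 TPM in the same order, so both were lowest with TTM. The part of these markers in the shares was not tested.

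**Figure D4:**
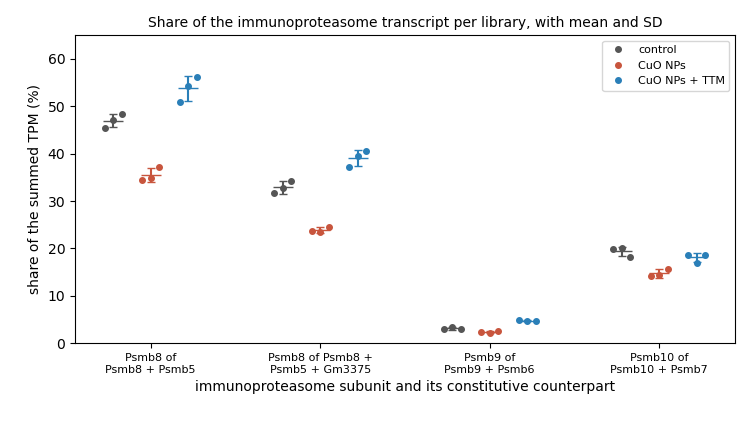
Share of each immunoproteasome transcript in the summed TPM of itself and its constitutive counterpart, in percent, per library with the mean and SD of 3 libraries per group, with Psmb8 shown also with the copy of Psmb5 in the sum. For Psmb8 the CuO NP libraries are lowest and the libraries with TTM highest.

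Of the other genes of the pathway, 51 were taken from 8 lists, of which all were tested. Counts of these short lists are to be read against the shares of all genes. With CuO NPs 11.8% of all genes were called higher and 30.1% lower, and with TTM over CuO NPs 34.6% and 18.5%. With median-of-ratios scaling the shares were 19.6% and 20.4%, and 26.5% and 27.2%. Adrm1 and Sem1, 19S subunits outside the chosen set, differed from each other. Adrm1 (ENSMUSG00000039041), a ubiquitin receptor of the base, rose with CuO NPs and was below the controls with TTM: 209, 203 and 205 TPM in the controls, 296, 304 and 291 TPM with CuO NPs and 162, 147 and 162 TPM with TTM. Its log2 fold changes were 0.53 with CuO NPs (SE 0.047, limma adjusted p = 2.43e-05) and -0.91 with TTM over CuO NPs (SE 0.047, adjusted p = 1.39e-06). Sem1, a small lid subunit, fell with CuO NPs (-0.32, adjusted p = 0.000313) and was higher with TTM over CuO NPs (0.18, adjusted p = 0.00613), a difference that was 0.05 with median-of-ratios scaling and -0.01 when libraries were centred on their median gene.

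Alternative caps of the core did not share a direction. Of 5 activators and inhibitors 1 rose and 2 fell with CuO NPs, and 2 rose and 2 fell with TTM over CuO NPs (2 and 1, and 0 and 2, with median-of-ratios scaling). Psme1, a subunit of the interferon-induced activator PA28, fell with CuO NPs from 119.6 ± 3.32 to 94.9 ± 4.44 TPM (-0.33, limma adjusted p = 0.0008) and was at 114 ± 5.20 TPM with TTM (0.27, adjusted p = 0.00197, but 0.14 and not called with median-of-ratios scaling). Psme4, the nuclear activator PA200, rose in steps from 20.7 ± 1.43 to 25.1 ± 0.432 TPM with CuO NPs (0.27, adjusted p = 0.0102) and to 30.1 ± 1.47 TPM with TTM (0.52 over control, adjusted p = 0.000139). Psme3, the nuclear member of the PA28 family, fell with TTM over CuO NPs from 106 ± 8.03 to 85.8 ± 5.54 TPM (-0.31, adjusted p = 0.00304). Psmf1, an inhibitor, fell with CuO NPs (-0.23) and further with TTM (-0.39 against control). Its call with CuO NPs was lost without control replicates 1 or 2 or CuO NP replicate 1 (adjusted p = 0.0524 to 0.0712). Psme2, the partner of Psme1, named here after its values were seen, ranged from 108 to 257 TPM, and its groups overlapped in all comparisons.

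Few assembly chaperones were called. Of 8, 1 rose and 1 fell with CuO NPs, with a median of 0.04 (2 and 0 with median-of-ratios scaling), and 0 rose and 2 fell with TTM over CuO NPs, with a median of -0.01. The shares of all genes were 11.8% and 30.1% with CuO NPs, and 34.6% and 18.5% with TTM over CuO NPs. The most abundant was Pomp (ENSMUSG00000029649), the chaperone of the last steps of core assembly. It stood at 513, 489.9 and 490.2 TPM in the controls, 572, 577 and 517 TPM with CuO NPs and 431, 429 and 419.7 TPM with TTM, so it rose (0.16, limma adjusted p = 0.0263) and fell with TTM over CuO NPs (-0.38, adjusted p = 0.000171). The rise was lost without control replicates 2 or 3 or CuO NP replicates 1 or 2 (0.13 to 0.15, adjusted p = 0.075 to 0.0927). Psmg1, a chaperone of the alpha ring, fell with CuO NPs (-0.29, adjusted p = 0.014, but -0.16 and not called with median-of-ratios scaling, and not called without control replicate 1, adjusted p = 0.0551). Psmd10, a chaperone of the base, fell with TTM over CuO NPs (-0.22, adjusted p = 0.0163), but not without CuO NP replicate 2 (adjusted p = 0.0525) or TTM replicate 1 (adjusted p = 0.0568).

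Upstream of the proteasome, Ubb (ENSMUSG00000019505), a stress-inducible gene that encodes polyubiquitin, rose with CuO NPs. It stood at 964, 963 and 1093 TPM in the controls, 1885, 1779.5 and 1874 TPM with CuO NPs and 1375, 1336 and 1426 TPM with TTM (0.88 with CuO NPs, limma adjusted p = 2.76e-06, and -0.42 with TTM over CuO NPs, adjusted p = 0.000206). The 3 groups did not overlap, and with TTM it remained above control by 0.46. Of 4 ubiquitin and activating-enzyme genes, 1 rose and 3 fell with CuO NPs (1 and 1 with median-of-ratios scaling). Uba1, the main ubiquitin-activating enzyme, fell (-0.33, adjusted p = 0.000698), as did Uba6, a second activating enzyme at a lower level (10.3 ± 0.688 TPM in the controls and 8.21 ± 0.974 TPM with CuO NPs, -0.30, adjusted p = 0.0411). The Uba6 call was lost without any of 6 of the 9 libraries (-0.22 to -0.34, adjusted p = 0.0539 to 0.135), and with median-of-ratios scaling (-0.18).

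Shuttle and extraction factors, which bring ubiquitinated proteins to the proteasome, were mostly lower with TTM. Of 11, 4 rose and 1 fell with CuO NPs, and 0 rose and 8 fell with TTM over CuO NPs (8 and 0, and 0 and 10, with median-of-ratios scaling). Of all genes, 18.5% were called lower with TTM over CuO NPs, and 27.2% with median-of-ratios scaling. Zfand2a (ENSMUSG00000053581), an arsenite-inducible protein that binds the regulatory particle, stood at 71.1, 64.5 and 64.1 TPM in the controls, 148, 146 and 128 TPM with CuO NPs and 62.2, 64.2 and 66.7 TPM with TTM. It rose by 1.07 (limma adjusted p = 2.55e-06) and fell by 1.12 with TTM (adjusted p = 2.92e-06), and the control and TTM groups overlapped. Vcp, the unfoldase that extracts ubiquitinated proteins from complexes and membranes, rose from 196 ± 8.57 to 226 ± 10.5 TPM and was at 174 ± 4.61 TPM with TTM (0.20 and -0.38). Its cofactor Ufd1 rose by 0.43 and fell by 0.44. Rad23b, a shuttle, fell in both steps (-0.30 and -0.31), but its fall with CuO NPs was not called with median-of-ratios scaling. The calls of Rad23b were lost without control replicate 3 or CuO NP replicates 1 or 3 (adjusted p = 0.0543 to 0.0823), and without CuO NP replicate 2 or TTM replicates 2 or 3 (adjusted p = 0.0531 to 0.0573). Of 6 proteasome-bound deubiquitinases and ligases, 1 rose and 4 fell with CuO NPs, and 2 rose and 1 fell with TTM over CuO NPs (1 and 2, and 2 and 3, with median-of-ratios scaling). Ube3a, a ubiquitin ligase, fell with CuO NPs from 21.5 ± 0.454 to 15.5 ± 0.508 TPM (-0.45, adjusted p = 0.000508) and was at 20.9 ± 1.42 TPM with TTM (0.41 over CuO NPs, adjusted p = 0.00063). Ecpas, an adaptor of the regulatory particle, rose with CuO NPs (0.27, adjusted p = 0.00929). Usp14, a deubiquitinase that trims chains on the regulatory particle, fell with CuO NPs from 89.6 ± 2.52 to 70.2 ± 1.72 TPM (-0.35, adjusted p = 0.000795) and was lower again with TTM at 60.2 ± 3.85 TPM (-0.22, adjusted p = 0.00739). Uchl5, a deubiquitinase held by Adrm1, moved opposite to Adrm1, at -0.20 with CuO NPs (-0.07 and not called with median-of-ratios scaling, and not called without control replicate 2 or CuO NP replicate 3, adjusted p = 0.0708 and 0.0524) and 0.37 with TTM over CuO NPs.

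Among 12 regulators of proteasome genes, 5 rose and 4 fell with CuO NPs, and 2 rose and 2 fell with TTM over CuO NPs (5 and 3, and 1 and 7, with median-of-ratios scaling). Nfe2l1 (ENSMUSG00000038615), which encodes the transcription factor named above, was higher with CuO NPs and higher again with TTM. It stood at 66.0, 64.0 and 64.9 TPM in the controls, 75.1, 89.5 and 77.4 TPM with CuO NPs and 139, 133 and 153 TPM with TTM. The 3 groups did not overlap. The log2 fold change of Nfe2l1 was 0.30 with CuO NPs (SE 0.073, limma adjusted p = 0.00873), where 15 subunits rose and 2 fell. It was 0.81 with TTM over CuO NPs (SE 0.073, adjusted p = 2.43e-05), where 27 subunits fell and 1 rose. Any link between this transcript and the subunits was not tested. Nfe2l2, which encodes NRF2, another factor of the antioxidant response element, fell with CuO NPs from 84.7 ± 4.55 to 63.2 ± 1.86 TPM (-0.42, adjusted p = 0.000353) and was at 62.4 ± 3.18 TPM with TTM (-0.02, not called). Maff and Mafk, small Maf partners of both factors, rose with CuO NPs (0.90 and 0.80, adjusted p = 1.18e-05 and 6.16e-05) and fell with TTM over CuO NPs (-0.47 and -0.44). Akirin2, which carries proteasomes into the nucleus, fell with CuO NPs from 24.5 ± 0.420 to 15.1 ± 0.900 TPM (-0.67, adjusted p = 0.000181) and was at 17.6 ± 1.84 TPM with TTM. Only RNA was measured, so protein amounts and proteasome activity are not known from these values.

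**Figure D5:**
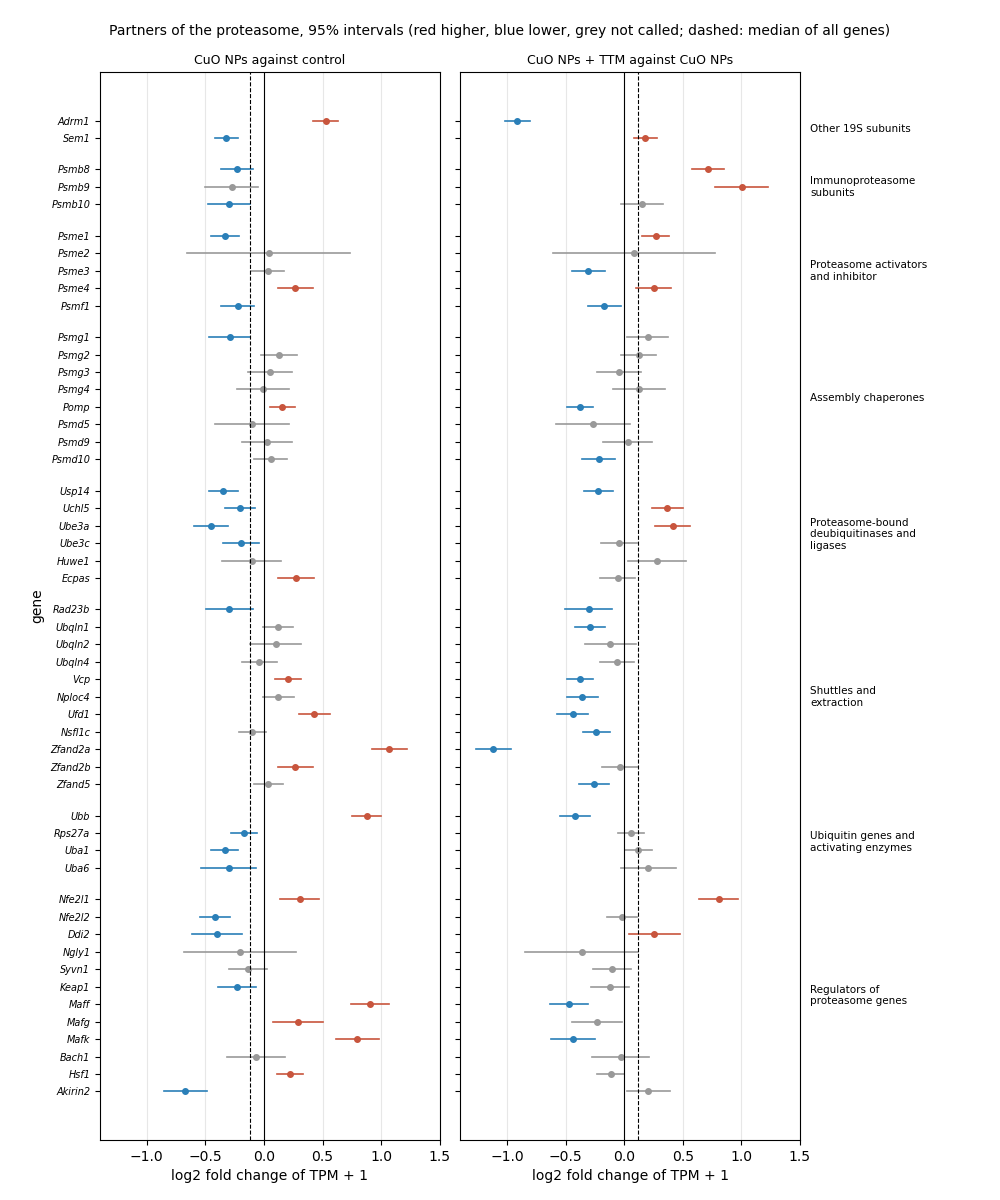
Log2 fold change of TPM + 1 with its 95% interval for 51 genes that work with the proteasome, by list, red where called higher, blue where called lower and grey where not called, with a dashed line at the median of all genes. Zfand2a, Maff and Ubb lie farthest right with CuO NPs, between 0.88 and 1.07, and with TTM over CuO NPs Zfand2a and Adrm1 lie farthest left and Psmb9 and Nfe2l1 farthest right.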

How the data were processed

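The authors deposited 1 table of TPM values over 56980 Ensembl identifiers for the 9 libraries. The tools named per the submitters' processing notes are HISAT2, RSEM, fastp and DESeq2, and the build is GRCm39. Their versions and roles, and any use of strand in counting, are not given in the sources used here. TPM keeps no read number, so depth is unknown, and each fold change rests on the spread between 3 libraries. Symbols for 52073 identifiers came from a reference annotation of GRCm38. The members and gene lists were chosen with earlier results of these data known, and some listed genes are not reported here. Genes with at least 1 TPM in at least 3 libraries, 12904 in all, entered 1 fit of log2(TPM + 1) by group (limma 3.58.1, R 4.3.3, eBayes with trend, two-sided p). P-values were Benjamini-Hochberg adjusted over all genes of a comparison and called below 0.05. Log2 fold changes are on this scale, with 95% intervals. The 3 comparisons share libraries. The fit was tested on simulated data. Beside the members, the text names up to 3 called genes of each list with the largest changes in a comparison, and Psmb8, Psmb9, Psmb10, Nfe2l1, Nfe2l2 and Pomp throughout. Copies were genes matching at 90% identity or more over at least 300 bases of the same strand. Alternatives were 4 scalings, a pseudocount of 0.1, no filter or one at 5 TPM, no trend, 2-group fits, a replicate block and leaving out each library. Tables and plots used Python 3.11.15, pandas 2.3.3 and matplotlib 3.10.9.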

Additional observations from a re-analysis of the deposited data

How the results depend on the processing

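With CuO NPs against control, 15 members were called higher and 2 lower. Median-of-ratios scaling and centring on the median gene each gave 25 higher and 0 lower, quantile normalization gave 0 lower, and removing mitochondrial genes, no filter and no trend each gave 1 lower. With TTM against control, 4 were higher, but 2 with median-of-ratios scaling, centring or no trend, and 9 with quantile normalization. Leaving out 1 library gave 13 to 15 higher and 1 to 2 lower with CuO NPs, 1 to 2 higher and 26 to 27 lower with TTM against CuO NPs, and 3 to 4 higher and 16 to 18 lower with TTM against control. The core median minus the regulatory median was 0.00 with CuO NPs (-0.0637 to 0.0021 without 1 library), 0.19 with TTM against CuO NPs (0.1289 without TTM replicate 3 to 0.2424 without TTM replicate 1) and 0.23 with TTM against control (0.2079 to 0.2694). Of the 27 members lower with TTM than with CuO NPs, 26 kept their call in every alternative run, all but Psmd13. Of the 15 higher with CuO NPs, 13 did, all but Psmb6 and Psmb7.

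Some member values that were not called in the main analysis were called with the other sign: Psma4 with CuO NPs at 0.11 (median-of-ratios) and 0.16 (centring), Psmb6 with TTM against CuO NPs at -0.17 (centring), Psmb7 with TTM against control at 0.16 (quantile) and Psma3 there at -0.18 (copies added, chosen after seeing the data). Among partner genes, calls were lost with a change of sign for Rps27a with CuO NPs (0.01) and Sem1 with TTM against CuO NPs (-0.0074) under centring, and for Vcp with TTM against control (0.0149) under quantile normalization. The median log2 fold change of all genes with CuO NPs was -0.12, and 0.06 with centring. The cause of these differences was not tested.

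Libraries with equal numbers in their titles did not deviate together (correlation of deviations from group means -0.127 to 0.010 for equal numbers). With 3 libraries a group this does not exclude a paired design or a batch. A replicate block gave 14 higher and 2 lower with CuO NPs, 1 and 27 with TTM against CuO NPs, and 3 and 17 with TTM against control. TPM without read numbers gives no counting error.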
